A study of Mus musculus with 10 samples.

Results

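The 7 miRNAs described here were taken by name from the deposited table: mmu-miR-199a-3p, mmu-miR-199b-3p, mmu-miR-199a-5p, mmu-miR-214-3p, mmu-miR-214-5p, mmu-miR-10a-5p and mmu-miR-10b-5p. All 7 were found among its 1061 mature miRNAs. The libraries were small RNA from retinas of wild-type C57BL/6J mice, an inbred laboratory strain, taken at postnatal day 34. In each animal 1 eye had carried a -20 D lens since postnatal day 24, for 10 days, and the fellow eye had none. There were 5 right and 5 left retinas, both from mice 61, 64, 65, 66 and 68. The labels give the side but not which side carried the lens, so the contrast is right minus left within a mouse, and neither side is called treated.

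miRNAs are short RNAs that guide Argonaute proteins to messenger RNAs, mainly by pairing of the seed, bases 2 to 8, and lower the output of those messengers. miR-199a and miR-214 are made together from Dnm3os, a noncoding transcript that runs antisense within the dynamin gene Dnm3 and is known from mesenchyme, skeletal precursors and fibroblasts. miR-10a and miR-10b sit inside the Hox clusters, whose genes set position along the trunk and are known from posterior rather than anterior tissues. In the eye, fibroblasts and mural cells lie in the sclera, the choroid and the vessel walls, and the sclera is the coat that is remodelled in myopia.

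The mature sequences, from RefSeq (GRCm38.p6), are shown because the results turn on which of them can be told apart. Seeds are in capitals, 5′ to 3′.
miR-199a-3p: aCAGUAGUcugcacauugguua
miR-199b-3p: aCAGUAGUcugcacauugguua
miR-199a-5p: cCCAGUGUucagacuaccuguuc
miR-214-3p: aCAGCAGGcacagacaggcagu
miR-214-5p: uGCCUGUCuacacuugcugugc
miR-10a-5p: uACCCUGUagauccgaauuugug
miR-10b-5p: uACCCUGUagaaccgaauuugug

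The members held 5 different seeds. miR-199a-3p and miR-199b-3p are the same RNA from different genes, with 0 differences over 22 bases, so a read of one cannot be told from a read of the other. miR-10a-5p and miR-10b-5p share the seed ACCCUGU and differ at 1 base of 23, U12A, counted from the 5′ end with the base of miR-10a first. Among the miRNAs of the table matched by name to a RefSeq mature sequence, none outside the members carried any of these 5 seeds. miR-199b-5p was not matched and is not covered by that statement. Its hairpin, Mir199b, holds CCAGUGU, the seed of miR-199a-5p, in its 5′ part.

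Positions are those of GRCm38. The table places miR-199a-5p and miR-199a-3p at chr1:162217844-162217866 and chr1:162217883-162217904, the arms of the hairpin Mir199a-2. miR-214-5p and miR-214-3p lie on the same strand at chr1:162223397-162223418 and chr1:162223438-162223459, with 5444 bases between the hairpins. By the GENCODE annotation, both hairpins lie in an exon of Dnm3os and, on the opposite strand, in an intron of Dnm3. A second copy, Mir199a-1, with the same mature sequences, lies on chromosome 9 from 21496495 to 21496564 opposite an intron of Dnm2. miR-199b-3p (chr2:32318524-32318545) lies opposite an intron of Dnm1, so each of the 3 miR-199 hairpins is antisense to a dynamin gene. miR-10b-5p (chr2:74726074-74726096) lies in an intron of Hoxd3 and of Hoxd4. miR-10a-5p (chr11:96317186-96317208) lies outside annotated genes, and its hairpin, Mir10a, ends 993 bases before Hoxb4. The 2 Dnm3os hairpins are printed with the arms in the table in capitals, since each gives a pair of members from 1 precursor.
Mir199a-2: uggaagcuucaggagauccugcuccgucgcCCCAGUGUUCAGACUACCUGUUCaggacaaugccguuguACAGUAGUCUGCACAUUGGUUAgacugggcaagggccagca
Mir214: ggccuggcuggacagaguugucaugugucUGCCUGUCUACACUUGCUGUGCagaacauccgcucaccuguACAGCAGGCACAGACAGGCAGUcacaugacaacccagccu

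The values are normalised reads, and because libraries were brought to 1 common distribution a value stands for a rank within its library. Library totals therefore nearly coincide, and sequencing depth is unknown. Retinal markers dominated the libraries. The 7 retinal marker miRNAs, among them miR-182-5p, miR-124-3p and miR-211-5p, summed to between 14392595 and 14411316 normalised reads in right and between 14387984 and 14416975 in left retinas. Most of that sum was fixed by the common distribution, since miR-182-5p (9840430), miR-181a-5p (3689310) and miR-183-5p (689415) each held 1 value in every library. Its near constancy is therefore no measure of even retinal content. miR-211-5p, which could vary, ran from 6309 to 20982.5. Libraries from mice 65 and 68 stood apart in other markers. The right retina of mouse 65 had a sum of 22646 for 8 lens, cornea and surface epithelium miRNAs, against 2137 to 2396 in the other right and 1233 to 2365 in the left retinas, with 22384 of it from miR-184-3p. The rest of that list was not raised as a whole. In that library miR-203-3p was at 213 and miR-205-5p at 25.6, beside means of 210 and 29.1 over 10 libraries. miR-141-3p was at 18.1, beside a mean of 11.2, and miR-200a-3p, at 0.201, was at its lowest. The left retina of mouse 68 had a sum of 1742 for 4 skeletal muscle miRNAs, against 279 to 400 in the right retinas and 295 to 381 in the other left ones. The right retina of that mouse had the highest sum of 3 erythroid miRNAs, 4420, with 4352 from miR-486a-5p. The other right retinas held 2555 to 3541 and the left ones 2604 to 3003. The erythroid and pigment epithelium lists each held 1 miRNA at an unadjusted p under 0.05 between sides by limma, beside 2.48% of all tested. In both lists 0 passed an adjusted p of 0.05. No marker of these lists was at 0 in every library, but miR-200c-3p, an epithelial miRNA, averaged 0.319 and miR-206-3p, a muscle one, 1.29. In bulk tissue, fewer cells of a type and less RNA per cell cannot be told apart.

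The members were minor species of the retina. miR-199a-3p averaged 320.9 ± 54.6 normalised reads (SD over 10 libraries) and ranked 176 by mean, with miR-199b-3p next at 288.4 ± 56.8. miR-10a-5p averaged 145.3 ± 56.9 and miR-10b-5p 76.9 ± 44.8. The others were near or below the level of 10 that was required for testing, with 16.3 ± 8.07 for miR-199a-5p, 12.1 ± 3.02 for miR-214-3p and 3.45 ± 2.24 for miR-214-5p, so 6 of 7 members were tested. Their lengths are 22 or 23 bases, so length does not separate them, but adapter ligation favours some sequences and these levels are not on a molar scale.

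In that order, miR-199a-3p was above miR-199b-3p in 5 libraries, below it in 2 and equal in 3, so the 2 did not separate. miR-199b-3p was above miR-10a-5p in 10 of 10 libraries, and miR-10a-5p above miR-10b-5p in 9 of 10, the exception being the left retina of mouse 66. miR-199a-5p and miR-214-3p did not separate, with miR-199a-5p higher in 7 of 10 libraries. miR-214-3p was above miR-214-5p in 10 of 10, and their ranges did not meet.

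**Figure D1:**
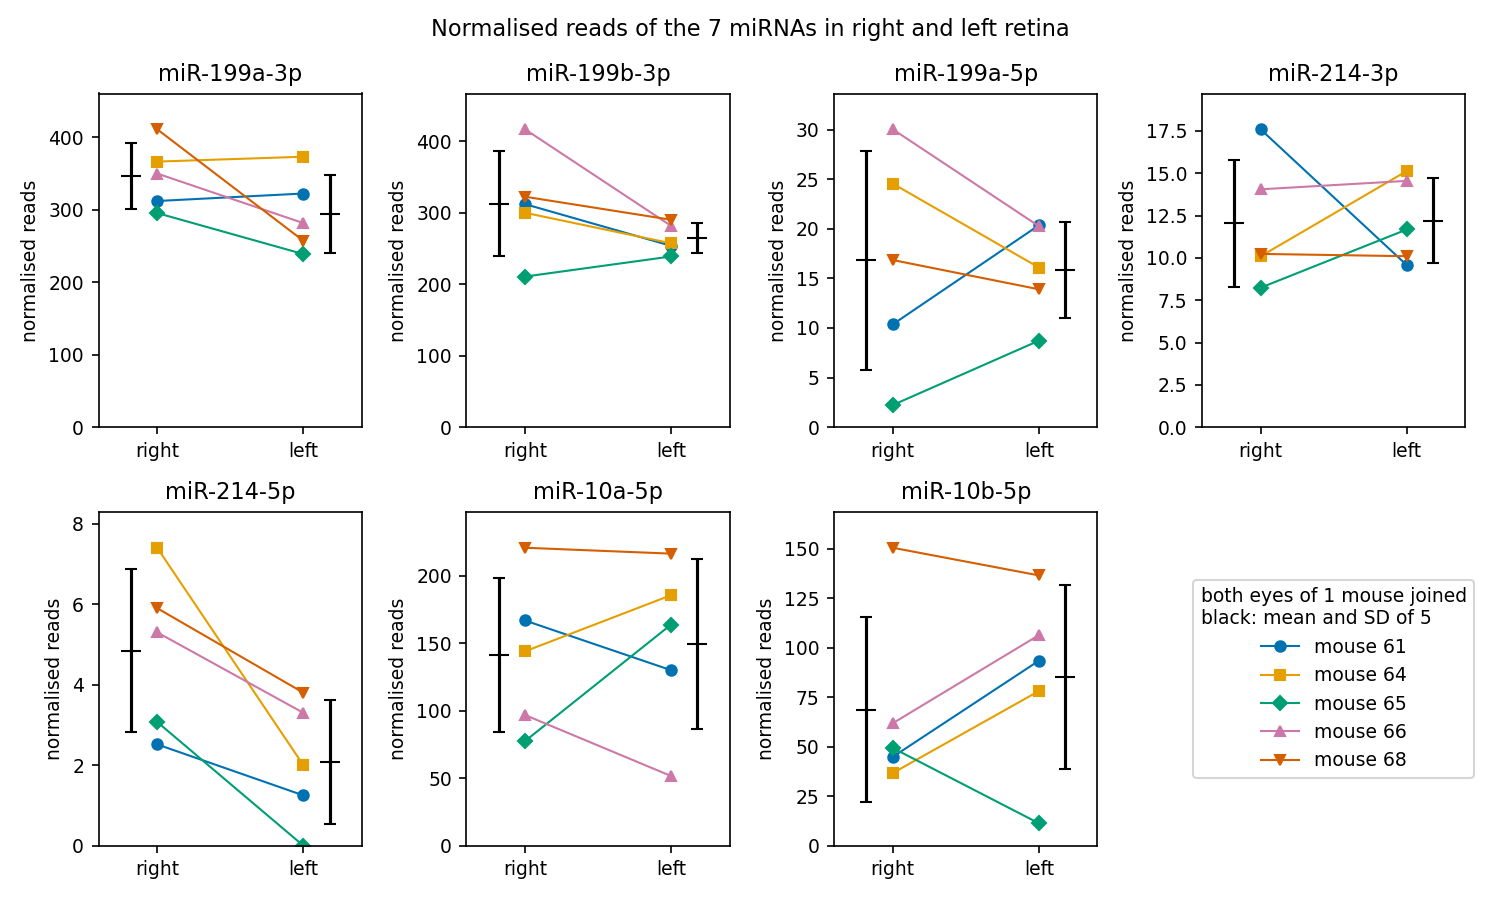
Normalised reads (vertical axes, each from 0) of the 7 miRNAs in right and left retina. Coloured points are single libraries, lines join both eyes of a mouse, and black marks give the mean and SD of 5 libraries. The lines of miR-214-5p all slope 1 way, whereas those of each other member slope both ways.

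No tested member differed between right and left retina beyond the spread of that difference from mouse to mouse. By limma, 0 of the 6 tested members and 0% of the 484 tested miRNAs passed an adjusted p of 0.05. At an unadjusted p under 0.05 there were 0 members, beside 2.48% of all tested, and 0 members had the same direction in all 5 mice, beside 3.72%. The log2 fold change lay above 0 for 2 of 6 members, beside 46.3% of all tested. Its median over the members was -0.04, against -0.01 over all tested, and its median size 0.18 against 0.09.

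miR-199a-3p, which is known in human cells to repress MTOR and MET, was at 312, 366, 296, 350 and 411 normalised reads in the right retinas of mice 61, 64, 65, 66 and 68, against 322, 373, 239, 282 and 257 in the left retinas. The highest library was the right retina of mouse 68 and the lowest the left of mouse 65, and the sides overlapped. The means were 347 ± 45.7 in right and 294.7 ± 53.9 in left retina (SD, n = 5 each). The log2 fold change of miR-199a-3p was 0.24 (SE 0.13, 95% interval -0.06 to 0.55), higher on the right in 3 of 5 mice, with an adjusted p of 0.958 by limma. It was 0.14 without mouse 68.

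miR-199b-3p was at 312, 300, 211, 417 and 322 normalised reads in the right retinas of the same mice in order, against 254, 257, 239, 282 and 290 in the left. The left values lay close together and within the range of the right ones, with means of 312.4 ± 73.3 in right and 264.3 ± 21.1 in left retina (SD, n = 5 each). The log2 fold change was 0.21 (SE 0.12), higher on the right in 4 of 5 mice, with an adjusted p of 0.958 by limma, and it was 0.12 without mouse 66. Without mouse 65 it was 0.31 (SE 0.10), with an unadjusted p of 0.0203 and an adjusted p of 0.333 by limma, beside 13.0% of all tested miRNAs with an unadjusted p under 0.05 in that fit.

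The division of 1 sequence between the 2 miR-199 3p rows varied between libraries. The values were exactly equal in the right retina of mouse 61 and the left retinas of mice 65 and 66, whereas in the left retina of mouse 64 miR-199a-3p was 0.54 higher on the log2 scale. Summed to 1 value, the pair was at 624, 666, 506, 767 and 734 normalised reads in right, against 576, 630, 478, 563 and 547 in left retinas. The sum was higher on the right in 5 of 5 mice, although the sides still overlapped, since the right retina of mouse 65 lay below most left ones. Its log2 fold change was 0.23 (SE 0.09, 95% interval 0.00 to 0.46), with an unadjusted p of 0.0498 and an adjusted p of 0.960 by limma, so it did not pass over all miRNAs tested. In that fit 13 miRNAs had an unadjusted p under 0.05. With the rows kept apart, 2.48% of all tested did, and 3.72% had the same direction in all 5 mice. Because a value stands for a rank, a sum of 2 rows is not the value that pooled reads would have had.

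miR-199a-5p, the other arm of the same hairpin, was at 10.4, 24.5, 2.23, 30.0 and 16.9 normalised reads in right retinas of mice 61, 64, 65, 66 and 68, against 20.4, 16.1, 8.72, 20.3 and 13.9 in left retinas. Mouse 65 was lowest on each side and the right values enclosed the left ones. The means were 16.8 ± 11.1 in right and 15.9 ± 4.86 in left retina (SD, n = 5 each), and the right retina was higher in 3 of 5 mice. The log2 fold change was -0.22 (SE 0.38, adjusted p 0.974 by limma), and 0.12 without mouse 65. The row of miR-199b-5p held exactly the same value as miR-199a-5p in 8 of 10 libraries, the 2 others being the right retina of mouse 65, with 2.23 for miR-199a-5p and 21.9 for miR-199b-5p, and the right retina of mouse 66, with 30.0 and 4.27. Of 114481 pairs of tested miRNAs that varied, 2 were equal in at least 8 libraries. The other was let-7a-1-3p with let-7c-2-3p, which share a mature sequence and were singled out after their values were seen. The 5p sequences of miR-199a and miR-199b are close but not the same. In the Mir199b hairpin, the stretch that lines up with miR-199a-5p reads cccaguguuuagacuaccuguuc. How the authors assigned reads that match more than 1 hairpin is not given in the sources used here, and its part in these values was not tested. The sum of both 5p rows was 32.4 ± 11.0 in right and 31.7 ± 9.72 in left retina (SD, n = 5 each), a log2 fold change of 0.03 (SE 0.24), while the row of miR-199b-5p alone gave -0.17.

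**Figure D2:**
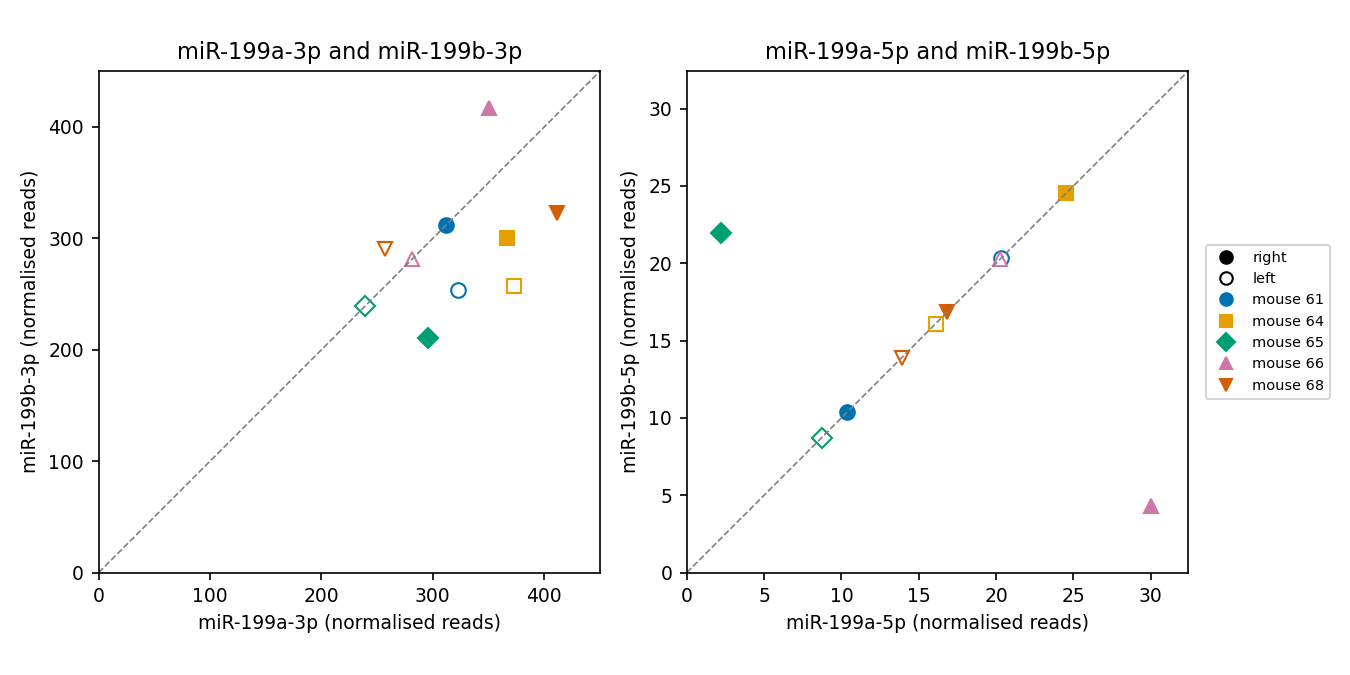
Normalised reads of miR-199a-3p against miR-199b-3p (left panel) and of miR-199a-5p against miR-199b-5p (right panel), 1 point a library, filled for right and open for left retina, with equality as the dashed line. On the line lie 3 of 10 libraries for the 3p rows and 8 of 10 for the 5p rows, and the right retinas of mice 65 and 66 lie far off it on opposite sides for 5p.

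miR-214-3p, known to repress Ezh2 in mouse muscle, was at 17.6, 10.1, 8.24, 14.1 and 10.2 normalised reads in right retinas in that order, against 9.57, 15.1, 11.7, 14.5 and 10.1 in left retinas. The sides overlapped almost fully, and the log2 fold change was -0.04 (SE 0.27, 95% interval -0.70 to 0.61).

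miR-214-5p, the opposite arm, was at 2.52, 7.40, 3.07, 5.30 and 5.90 normalised reads in right retinas, against 1.25, 2.0, 0, 3.30 and 3.80 in left retinas. It was higher on the right in 5 of 5 mice, while the sides overlapped between 2.52 and 3.80. The means were 4.84 ± 2.03 in right and 2.07 ± 1.54 in left retina (SD, n = 5 each), with a mean difference of 1.05 ± 0.68 on the log2(value + 1) scale (SD over 5 mice). miR-214-5p was below the level required for testing. With no filter, its unadjusted p by limma was 0.0187 and its adjusted p 0.950 over 1061 miRNAs, of which 2.36% had an unadjusted p under 0.05 and 1.32% were higher on the right in all 5 mice. It ranked between 507 and 873 of the 1061 miRNAs in single libraries.

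The ratios of arms and copies restate these values within a library. On the log2(value + 1) scale, miR-214-3p over miR-214-5p was 1.19 ± 0.76 in right and 2.28 ± 0.90 in left retina (SD, n = 5 each). Its denominator is the low miR-214-5p, and the difference was -1.86 with a pseudocount of 0.1 and -0.32 with 10. The right eye had the lower ratio in 4 of 5 mice, with a mean difference of -1.09 (exact sign-flip permutation test over 5 mice, two-sided, p = 0.125, adjusted over 4 ratios 0.500). With 5 mice this test cannot reach 0.05, since the smallest p it allows is 0.063. For the miR-214 ratio it gave that smallest p with a pseudocount of 0.1, and 0.25 with 10. miR-199a-3p over miR-199a-5p was 4.64 ± 1.17 in right and 4.17 ± 0.37 in left retina (exact p = 0.375). That difference was 0.47, and 0.11 without mouse 65, whose right retina held the 2.23 normalised reads of miR-199a-5p. The log2 ratio of miR-10b-5p over miR-10a-5p was -1.13 ± 0.71 and -1.02 ± 1.74 in right and left retina (exact p = 1). miR-199a-3p over miR-199b-3p was 0.17 ± 0.30 in right and 0.14 ± 0.29 in left retina (exact p = 0.938).

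miR-10a-5p, known to restrain inflammatory signalling in human endothelium, was at 167, 144, 77.4, 96.8 and 221 normalised reads in right retinas of mice 61, 64, 65, 66 and 68, against 130, 186, 164, 51.6 and 216 in left retinas. Both eyes of mouse 68 were highest and the left retina of mouse 66 lowest. The means were 141 ± 57.1 in right and 149 ± 63.1 in left retina (SD, n = 5 each). The fitted log2 fold change was -0.03, with an SE of 0.27. The difference ran from -1.07 in mouse 65 to 0.90 in mouse 66.

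miR-10b-5p, known for its rise in metastatic human breast cancer, was at 44.9, 36.7, 49.4, 61.9 and 151 normalised reads in right retinas, against 93.5, 78.2, 11.3, 106 and 137 in left retinas. Both eyes of mouse 68 were again highest, and the left retina of mouse 65 was lowest by far, with 11.3 where miR-10a-5p was at 164. The log2 fold change of miR-10b-5p was -0.14 (SE 0.47) over 5 mice. It was lower on the right in mice 61, 64 and 66, by -1.04, -1.07 and -0.77, level in mouse 68 with 0.14, and higher in mouse 65 by 2.04. Without mouse 65 the log2 fold change was -0.69 (SE 0.22), with an unadjusted p of 0.0219 and an adjusted p of 0.333 by limma, in the fit where 13.0% of all tested miRNAs had an unadjusted p under 0.05. Leaving out each other mouse gave -0.21 to 0.090. Mouse 65 is also the animal with the high miR-184-3p in its right retina, and mouse 68 the one with high muscle miRNAs in its left retina. The right retina of mouse 68 also had the highest erythroid sum. The part of these markers in the miR-10 values was not tested.

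**Figure D3:**
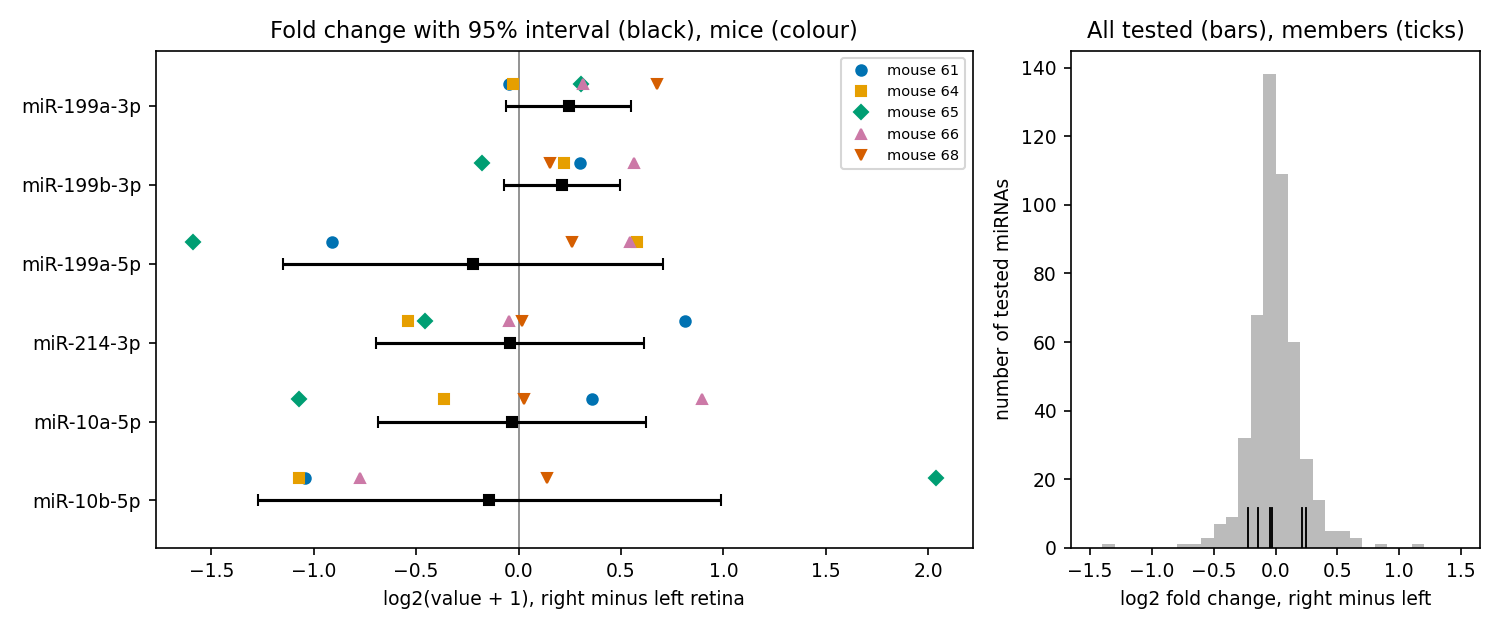
Left panel, difference of log2(value + 1), right minus left retina, for the 6 tested members, with the fitted fold change and its 95% interval in black and the 5 mice in colour above it. Right panel, number of tested miRNAs (bars, 484 in all) by log2 fold change, with the members as ticks. All 6 intervals contain 0, and mouse 65 lies farthest to the right for miR-10b-5p and farthest to the left for miR-10a-5p.

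Members differed in how much they varied between libraries. miR-10b-5p had a coefficient of variation of 58.2% over 10 libraries, and of the 121 tested miRNAs with a mean within 2-fold of its own, itself included, 3 had a higher one and the median was 20.2%. For miR-10a-5p it was 39.2%, with 4 of 100 higher and a median of 17.4%. The miR-199 3p rows were close to miRNAs of their level, with 17.0% for miR-199a-3p against a median of 15.3% and 19.7% for miR-199b-3p against 15.1%. miR-199a-5p had 49.4% against a median of 29.7%, and miR-214-3p, with 24.9% against 34.2%, varied less than 62 of 80 miRNAs of its level. These are descriptions with no test.

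**Figure D4:**
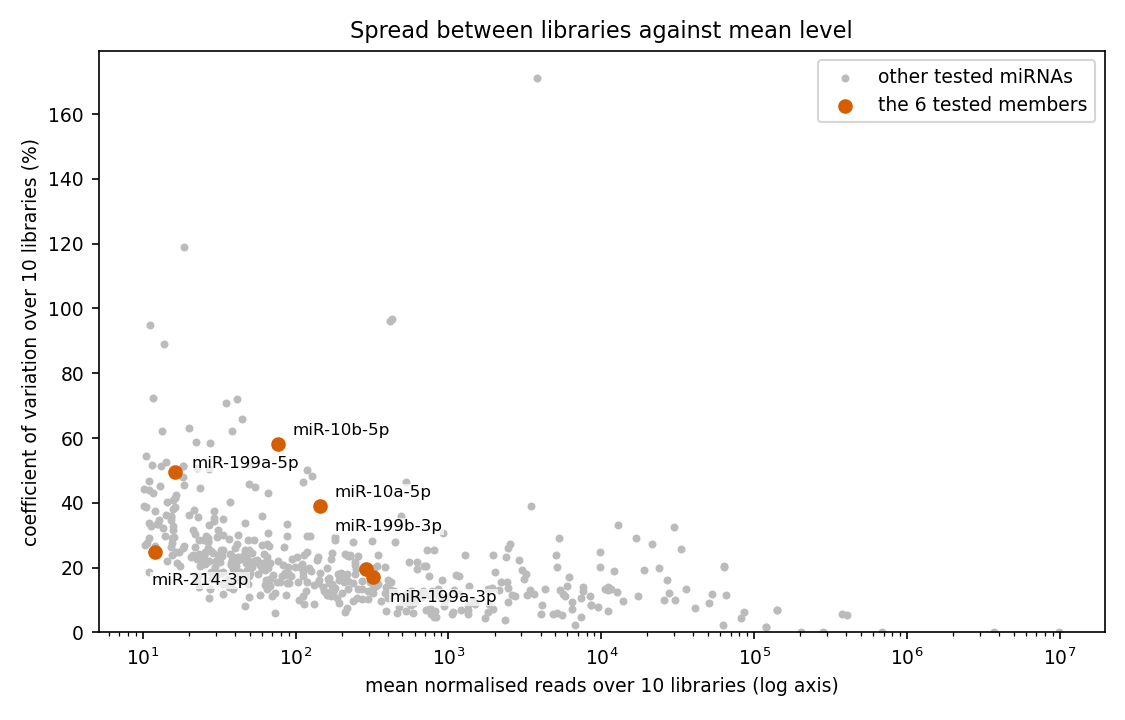
Coefficient of variation over 10 libraries (vertical axis, percent) against mean normalised reads (horizontal axis, log scale), 1 point for each of 484 tested miRNAs, with the 6 tested members in orange. miR-10b-5p (58.2%) and miR-10a-5p (39.2%) lie at the upper edge for their level, and the miR-199 3p rows lie within the cloud.

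Whether levels differed between animals by more than between the eyes of an animal was tested with side as a term. By limma's F test, 0 of 6 members and 1.65% of all tested miRNAs passed an adjusted p of 0.05, and 0 members were at an unadjusted p under 0.05, beside 14.0% of all tested. The members nearest to it were miR-10a-5p, with an adjusted p of 0.358 by limma and an unadjusted p of 0.0584, and miR-199a-5p, with 0.360 and 0.0635. The miR-10 rows depended on which mice were kept. Without mouse 65 the unadjusted p by limma was 0.00842 for miR-10a-5p and 0.0197 for miR-10b-5p, with adjusted p of 0.131 and 0.187. Without mouse 68 the unadjusted p was 0.146 and 0.252. No member passed an adjusted p of 0.05 under any alternative.

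Related miRNAs were compared from fixed lists, which were chosen with earlier results of these data known. Of the 10 listed Hox-linked miRNAs, the 2 in the table were the members themselves. The miR-10 relatives miR-99a, miR-99b, miR-100, miR-125a and miR-125b, guide strands with a sequence akin to miR-10, were far more abundant, led by miR-125a-5p with 25804 in right and 25706 in left retina and miR-99b-5p with 18691 and 19445. Of these 5, 0 passed an adjusted p of 0.05 between sides by limma, 4 log2 fold changes were above 0 and 1 below, from -0.06 to 0.09, and 1, miR-99a-5p, differed between mice with an adjusted p of 0.0338 by limma. Of 11 mesenchymal, cartilage and mural cell miRNAs, 9 were tested and 0 passed between sides, with 7 log2 fold changes above 0 and 2 below and a median of 0.01. miR-143-3p, the smooth muscle miRNA that led the list, was at 17488 in right and 17459 in left retina, and miR-140-3p, known from cartilage, at 1849 and 1827. The largest fold changes were 0.29 for miR-145a-5p and -0.27 for miR-455-5p. The 3 pericyte and smooth muscle markers summed to between 15478 and 21125 in right and between 14542 and 19521 in left retinas, and the 2 endothelial markers to between 7427 and 9110 in right and between 7870 and 8926 in left retinas. The 3 pericyte and smooth muscle markers, which the mesenchymal list also holds, had log2 fold changes above 0 (median 0.20), beside 46.3% of all tested. For miR-143-3p it was only 0.003, and miR-145a-5p (0.29) and miR-145a-3p (0.20) are both arms of miR-145a. Both endothelial markers lay below 0 (median -0.09). By limma 0 of them passed an adjusted p of 0.05, and their part in the member values was not tested.

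The members did not follow each other closely over the 10 libraries. Spearman's rho was used here only as a measure of likeness, since both eyes of a mouse and a common scaling are shared. It was 0.49 between miR-199a-3p and miR-199b-3p, 0.52 between both arms of miR-199a and 0.27 between miR-10a-5p and miR-10b-5p. Between miR-199a-3p and miR-214-3p, which was near the level required for testing, rho was 0.07. Mir199a-2 and Mir214 share Dnm3os, but the sequence of miR-199a-3p is also that of Mir199a-1 and Mir199b. Its row can therefore not be credited to Dnm3os alone. Among 473 other miRNAs, the pattern most like miR-199a-3p was that of let-7g-5p (rho 0.85), followed by miR-152-5p and miR-148a-5p (0.79 each). let-7g-5p was nearly constant, with a log2 difference between eyes of 0 in mice 61, 64 and 65 and of 0.05 in mice 66 and 68. The values named here are the highest of 473 over 10 libraries, and how high they would come without any relation was not tested. For miR-214-3p these were miR-135b-3p (0.77), miR-1306-3p (0.73) and miR-98-5p (0.72). miR-10a-5p was most like miR-183-3p (0.92), miR-666-5p (0.91) and miR-346-5p (0.87), and miR-10b-5p most like miR-301b-3p (0.88), miR-190b-3p (0.87) and miR-181b-1-3p (0.83).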

How the data were processed

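Small RNA libraries from 10 retinas were made with the TruSeq Small RNA kit, per the labels' protocols. The submitters' processing notes name Bowtie, Partek, mm10 and GRCm38, with no versions. How reads were trimmed, annotated and assigned among hairpins is not given in the sources used here. Values were deposited as a signal, called normalised counts in the authors' table name, with 1 common value at 342 ranks of every library and totals from 17312269 to 17312436, as quantile normalisation gives. Depth is therefore unknown and no counting interval was computed. Ends in the deposited table lay 1 base past the RefSeq end for 7 of 7 members and are printed as the last base.

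Averages over the 10 libraries had to reach 10, which left 484 of 1061 miRNAs. These were tested as log2(value + 1) across all miRNAs with limma 3.58.1 (R 4.3.3), fitting mouse and side and a mean-variance trend, two-sided, with Benjamini-Hochberg adjustment over all tested and a threshold of 0.05. Fold changes on this scale understate those of low miRNAs. The fit was also run on simulated data with independent normal noise. Those data were not brought to a common distribution as these libraries were, and no result here rests on them. Both eyes of a number come from 1 animal, hence the mouse term. Their deviations from the mean of their side correlated by 0.0893 to 0.382 across miRNAs, against a median of -0.0824 for eyes of different mice. Taking deviations from the mean of a side by itself pulls the value for different mice below 0, so the gap overstates the pairing. The members and lists were chosen with earlier results of these data known. Named beyond the members were list members, other arms or copies of the hairpins, the 3 miRNAs of highest rho to 4 members, marker miRNAs, and a let-7 pair chosen after its values were seen. Alternatives covered the block, pseudocount, filter, scaling, trend, summed rows and each mouse left out.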

Additional observations from a re-analysis of the deposited data

Results flagged for a closer look

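In 16 groups of 5 libraries (the 7 members and miR-199b-5p, each side), 1 library lay far from the rest of its group by Dixon's criterion, which flags about 1 group in 20 by chance. It was the right retina of mouse 68, with 151 normalised reads of miR-10b-5p against 36.7 to 61.9 in the other right retinas. The left retina of that mouse, at 137, was the highest of its side.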

How the results depend on the processing

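Under each of the 14 alternatives 0 miRNAs passed the adjusted threshold between sides by limma, and at an unadjusted p under 0.05 there were 7 to 63 miRNAs when each mouse was left out, the 63 without mouse 65. Both miR-199 3p rows kept a log2 fold change above 0 under every alternative run, from 0.14 to 0.32 for miR-199a-3p and from 0.12 to 0.31 for miR-199b-3p. With each mouse left out in turn, the signs of the others turned, with ranges from -0.42 to 0.12 for miR-199a-5p, -0.26 to 0.082 for miR-214-3p, -0.26 to 0.23 for miR-10a-5p and -0.69 to 0.090 for miR-10b-5p, and the log2 ratio difference ran from -0.92 to 0.28 for miR-10b-5p over miR-10a-5p and from -0.089 to 0.13 for miR-199a-3p over miR-199b-3p. Summing the 5p rows, an alternative chosen after seeing the data, gave 0.027 for miR-199a-5p. The number of miRNAs that differed between mice by limma was 8, 3 to 7 with a mouse left out (3 without mouse 68) and 5 without the mean-variance trend. Without the paired term (no replicate block) 13 miRNAs were at an unadjusted p under 0.05 between sides, against 12, and the block changed no member's call. The difference of the miR-214 arm ratio kept its sign, at -1.86 with a pseudocount of 0.1 and -0.32 with 10. A mean of at least 50 left miR-199a-5p and miR-214-3p untested. The cause of these changes was not tested, and what unknown depth limits could not be measured.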
